A study of Mus musculus with 6 samples.

Results

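*Myl4*, *Cecr2*, *Mov10* and *Tacr3* are 4 of the 51802 gene symbols, and of the 17136 genes tested, in bulk RNA-seq of the mouse cochlea. They were selected on the contrast described here, for a small unadjusted p and for *Pou4f3(Δ/+)* values that lie wholly above or below the wildtype values. No threshold was fixed for that choice, and all 26 transcripts listed under the 4 symbols were used. The difference between genotypes is therefore a description for these genes and carries no test of its own. Total RNA came from cochleae of C57/BL6J mice at 2 months of age, 3 wildtype samples (replicates 3, 4 and 5) and 3 *Pou4f3(Δ/+)* samples (replicates 1, 2 and 3), the wildtype animals being littermates. The *Pou4f3(Δ/+)* mice carry 1 knock-in allele with a short deletion and a C-to-T change that shift the reading frame and end the protein early, beside 1 wildtype allele, in every cell of the body. Neither the labels nor the methods say whether a sample holds 1 animal or several, so an error given here measures the spread between samples, which may be partly technical. Whole cochlear tissue was sequenced, so the hair cells, in which *Pou4f3* acts, are a small part of each sample.

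*Pou4f3* encodes a POU-domain transcription factor needed for the survival of hair cells, the sensory receptors of hearing. The 4 genes have unrelated roles. *Myl4* encodes the essential myosin light chain of the atrium and of embryonic muscle, one of the small chains that stiffen the lever arm of a myosin head. *Cecr2* encodes a bromodomain protein that pairs with an ISWI-type motor, an enzyme that slides nucleosomes along DNA, and its loss in mice leaves the neural tube open. *Mov10* encodes an RNA helicase found with Argonaute proteins, the carriers of small RNAs, and restrains retroelements. *Tacr3* encodes the neurokinin 3 receptor, a G protein-coupled receptor for the tachykinin peptide neurokinin B, best known from neurons that control reproduction.

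Because reads were divided among the transcripts of each gene, the sequences that set those transcripts apart come before the values. Coordinates are those of GRCm38 in the GENCODE M21 annotation. *Myl4* (ENSMUSG00000061086, chr11:104550663-104595753, plus strand) has 8 listed transcripts. Of these, 3 share the whole coding sequence of 579 bases and differ only in non-coding exons before it, and 5 share the first coding exon, chr11:104577452-104577574. That exon is shown because every count of a full-length *Myl4* message has to come from transcripts that hold it, and the start codon is in capitals.
Myl4 first coding exon: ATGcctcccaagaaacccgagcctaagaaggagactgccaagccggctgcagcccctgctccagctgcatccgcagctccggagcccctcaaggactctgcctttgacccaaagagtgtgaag

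*Cecr2* (ENSMUSG00000071226, chr6:120666369-120771190, plus strand) also has 8 listed transcripts. The full-length forms Cecr2-201 and Cecr2-202 differ by a coding stretch of 84 bases, 28 codons, at chr6:120756854-120756937 that only Cecr2-201 holds, and by the last exon, which has 493 bases in Cecr2-201 and 4779 in Cecr2-202. The stretch is shown because it is the coding difference between the *Cecr2* transcripts with the most counts.
Cecr2-201 coding stretch: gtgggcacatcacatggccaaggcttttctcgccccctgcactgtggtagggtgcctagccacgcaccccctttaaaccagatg

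*Mov10* (ENSMUSG00000002227, chr3:104794836-104818563, minus strand) has 9 listed transcripts. Mov10-203 and Mov10-206, both 3584 bases long, differ at 2 bases only, positions 838 and 839 counted from the first base of the transcript, because the splice junction of Mov10-206 lies 7 bases away from that of Mov10-203. The 30 bases around that junction (minus strand, with the intron left out, within chr3:104804373-104804487) are shown because they decide which form a read fits, and the differing bases are in capitals.
Mov10-203 form: ctgggccccggtgaGTgctatgaactccac
Mov10-206 form: ctgggccccggtgaAAgctatgaactccac

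*Tacr3* (ENSMUSG00000028172, chr3:134829007-134934579, plus strand) has 1 listed transcript and hence 1 start site. RefSeq's promoter table for GRCm38 holds *Myl4*, *Mov10* and *Tacr3*, 3 of the 4 genes. The 250 bases before the *Tacr3* start (chr3:134828757-134829006, plus strand) and before the outer *Mov10* start (chr3:104818564-104818813, minus strand) are shown because both genes were lower in *Pou4f3(Δ/+)*. Of the transcripts at the outer *Mov10* start, Mov10-206 had nearly all counts, 15.9% of those of the gene in wildtype and 10.4% in *Pou4f3(Δ/+)*, and the more abundant Mov10-207 starts further in, at 104818305. Capitals mark matches to motifs searched on both strands.
Tacr3 upstream: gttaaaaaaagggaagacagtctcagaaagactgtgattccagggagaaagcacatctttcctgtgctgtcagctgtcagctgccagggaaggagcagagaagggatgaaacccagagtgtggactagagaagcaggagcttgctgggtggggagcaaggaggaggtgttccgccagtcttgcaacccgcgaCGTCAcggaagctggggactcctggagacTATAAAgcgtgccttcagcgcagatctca
Mov10 upstream: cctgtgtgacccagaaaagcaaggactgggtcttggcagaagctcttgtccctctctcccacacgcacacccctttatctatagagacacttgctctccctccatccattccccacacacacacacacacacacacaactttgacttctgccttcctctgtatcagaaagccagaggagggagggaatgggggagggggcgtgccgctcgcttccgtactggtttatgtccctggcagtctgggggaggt

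The *Tacr3* window holds 1 short cyclic AMP site (TGACG or CGTCA, present in 17.8% of 32851 windows of this length) and 1 TATA box (TATAAA or TTTATA, 12.4%). The letters ATAATTAAT, of the class that POU4F proteins bind, with their reverse complement ATTAATTAT, occur in 0.259% of all windows and in none of the windows of the 3 genes. The interferon response letters GAAANNGAA (reverse complement TTCNNTTTC, 7.13%) and the full cyclic AMP site TGACGTCA (1.55%), which contains the short one, are also absent from these windows. A match or its absence describes these letters in this window and nothing further.

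Values of single libraries are given in the order of their replicate numbers, 3, 4 and 5 for wildtype and 1, 2 and 3 for *Pou4f3(Δ/+)*. Summed counts ranged from 14295069 to 17696784 per library. *Pou4f3* itself had 68, 72 and 88 counts in the wildtype libraries and 66, 97 and 52 in the *Pou4f3(Δ/+)* libraries, a log2 fold change of -0.06 (SE 0.27). Both alleles feed these counts, so they do not check the genotype. The labelled tissue was checked against cochlear markers, with *Coch* at 2349 ± 415 FPKM (SD, n = 3), *Otos* at 375 ± 21.3 and *Gjb2* at 201 ± 20.7 in wildtype, and against the hair cell genes *Myo6* (34.9 ± 5.10), *Ocm* (27.5 ± 1.19) and *Myo7a* (8.79 ± 0.739), while *Oc90*, of the otoconia, had 0 counts in wildtype and at most 4 in *Pou4f3(Δ/+)*. FPKM, the unit of these levels, are counts of fragments relative to the length of the transcript and to the total of the library. Libraries stood apart within the *Pou4f3(Δ/+)* group: on the first principal component of log2 CPM, with 32.5% of the variance, replicates 1 and 2 scored 23.2 and 40.2, whereas replicate 3 and the wildtype libraries scored between -21.5 and -11.7. Each gene-level difference of the 4 genes is therefore given with and without these libraries.

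Of the 17136 genes tested with edgeR's quasi-likelihood test, 0 passed an adjusted p of 0.05 (0%), so none of the 4 did, and the smallest adjusted p of any gene was 0.223. DESeq2 on the same counts called 64 genes (0.373%), and all 4 genes are among them. Without adjustment 1309 genes (7.64%) had an edgeR p under 0.05, 2170 genes (12.7%) had groups that did not overlap in log2 CPM, the log2 of counts relative to the library total (CPM), and 949 genes (5.54%) met both conditions. Both are measures on which the 4 genes were chosen, so that count says nothing about them. By edgeR's p they ranked 3 (*Myl4*), 5 (*Cecr2*), 6 (*Mov10*) and 12 (*Tacr3*), with unadjusted p of 0.000110, 0.000200, 0.000253 and 0.000669 as the values that chose them. Genes of neighbouring rank that were not chosen include *Fam129c* at 7, *Myl9* at 8 and *Col12a1* at 13, with an unadjusted edgeR p of 0.000708 for *Col12a1*, just after *Tacr3*.

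*Myl4* was higher in *Pou4f3(Δ/+)* cochleae. It had 31, 30 and 27 counts in the wildtype libraries and 78, 98 and 93 counts in the *Pou4f3(Δ/+)* libraries. In FPKM, these were 2.05, 2.15 and 1.6 against 4.0, 6.12 and 5.80. The 3 *Pou4f3(Δ/+)* libraries all lay above the 3 wildtype libraries, and replicate 1 was the lowest of them. The group means were 1.93 ± 0.293 and 5.31 ± 1.14 FPKM (SD, n = 3), and the fitted difference was 3.12-fold, a log2 fold change of 1.64 (SE 0.25; edgeR adjusted p = 0.591). In bulk tissue a greater or smaller number of cells of a type and a greater or smaller amount of RNA per cell cannot be told apart, for this gene and the others. By counts over all 6 libraries *Myl4* is the most weakly expressed of the 4. In *Pou4f3(Δ/+)* alone it was level with *Tacr3*, at mean counts of 89.7 and 89.3. Of the tested genes, 19.4% had a lower mean log2 CPM than *Myl4*. Its coefficient of variation among wildtype libraries, 13.7%, was below the 18.5% that counting error alone gives at this depth.

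The difference in *Myl4* was of similar size in the libraries apart on the first principal component and in the other one. That other library, replicate 3, stood apart in striated muscle markers instead, which summed to 154 CPM there and to at most 37.4 CPM elsewhere. With replicate 3 as the only *Pou4f3(Δ/+)* library, assumed to vary like the wildtype libraries, the log2 fold change was 1.78, and with replicates 1 and 2 only it was 1.57. Leaving out any 1 library gave values from 1.54 to 1.80.

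**Figure D1:**
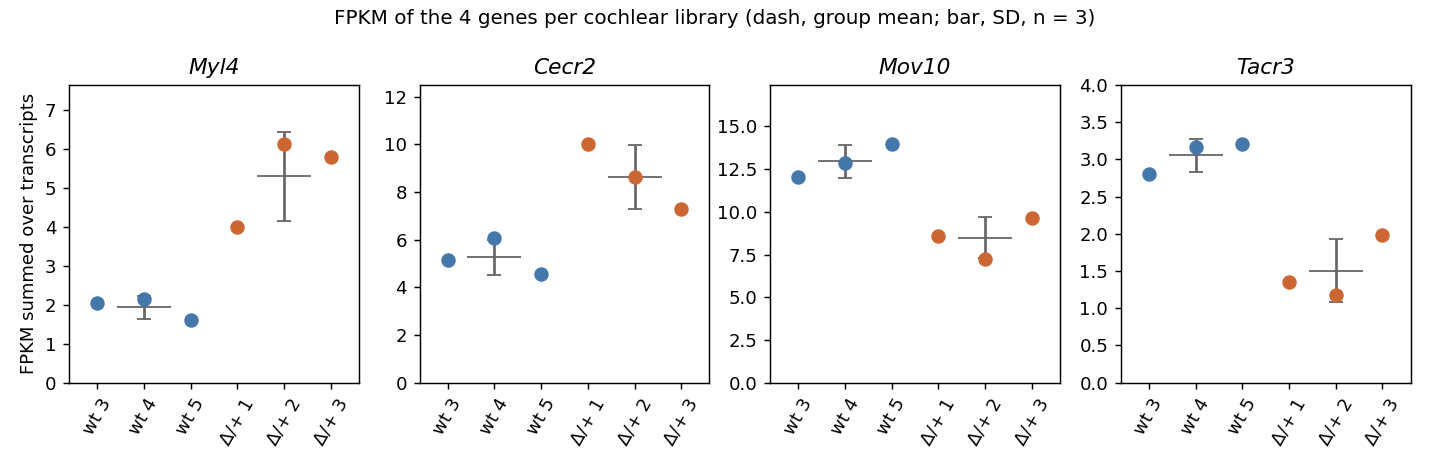
FPKM of *Myl4*, *Cecr2*, *Mov10* and *Tacr3*, summed over transcripts (y axis, linear from 0), in wildtype (wt, blue) and *Pou4f3(Δ/+)* (Δ/+, orange) libraries on the x axis, with points for libraries, dashes for group means and bars for the SD (n = 3). *Myl4* goes from at most 2.15 in wildtype to at least 4.0, *Cecr2* from at most 6.06 to at least 7.30, *Mov10* from at least 12.05 to at most 9.65, and *Tacr3* from at least 2.80 to at most 1.98.

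*Cecr2* was also higher in *Pou4f3(Δ/+)*, by less. It had 452, 426 and 481 counts in the wildtype libraries and 982, 841 and 586 counts in the *Pou4f3(Δ/+)* libraries. The FPKM were 5.15, 6.06 and 4.58 against 10, 8.63 and 7.30. The groups did not overlap, and *Pou4f3(Δ/+)* replicate 3 lay nearest to wildtype. The means were 5.26 ± 0.746 and 8.64 ± 1.35 FPKM (SD, n = 3), the fitted difference was 1.79-fold, and the log2 fold change was 0.84 (SE 0.14; edgeR adjusted p = 0.643). The libraries that stood apart carried more of this difference than of that in *Myl4*: with replicates 1 and 2 only the log2 fold change was 0.99, and with replicate 3 only it was 0.49, or 1.41-fold.

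*Mov10*, the RNA helicase, was lower in *Pou4f3(Δ/+)*. Its counts were 672, 579 and 766 in the wildtype libraries and 477, 359 and 436 in the *Pou4f3(Δ/+)* libraries. Its FPKM were 12.05, 12.85 and 13.94 against 8.58, 7.26 and 9.65. No *Pou4f3(Δ/+)* library reached the lowest wildtype library, and replicate 2 was the lowest of all. The means were 12.9 ± 0.949 and 8.50 ± 1.20 FPKM (SD, n = 3), a log2 fold change of -0.64 (SE 0.11; edgeR adjusted p = 0.643), or 1.56-fold lower. With replicates 1 and 2 only the log2 fold change was -0.71, and with replicate 3 only it was -0.50. *Mov10* had the smallest fold difference of the 4 genes and the smallest standard error.

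*Tacr3*, the neurokinin 3 receptor, was lower by a larger factor. Its counts were 182, 170 and 207 in the wildtype libraries and 90, 69 and 109 in the *Pou4f3(Δ/+)* libraries. Its FPKM were 2.80, 3.16 and 3.20 against 1.35, 1.18 and 1.98. Wildtype libraries lay close together and *Pou4f3(Δ/+)* libraries spread more widely below them, with replicate 3 nearest to wildtype. The coefficient of variation was 6.96% among the wildtype libraries, where counting error alone gives 7.33%, and 26.3% among the *Pou4f3(Δ/+)* libraries, where it gives 10.6%. The means were 3.05 ± 0.220 and 1.5 ± 0.421 FPKM (SD, n = 3), a log2 fold change of -1.03 (SE 0.20; edgeR adjusted p = 0.643), or 2.04-fold lower. With replicates 1 and 2 only the log2 fold change was -1.25, and with replicate 3 only it was -0.65, or 1.57-fold lower.

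In *Cecr2*, *Mov10* and *Tacr3*, then, *Pou4f3(Δ/+)* replicate 3 was the library of its group nearest to wildtype, whereas in *Myl4* that was replicate 1. On log2 CPM, which corrects for library size, the gap between the nearest libraries of the 2 groups was 1.04 for *Myl4*, 0.53 for *Tacr3*, 0.42 for *Mov10* and 0.41 for *Cecr2*. Each gap exceeded the range among wildtype libraries, which was 0.37, 0.19, 0.20 and 0.17 in the same order. The range among *Pou4f3(Δ/+)* libraries was smaller than the gap for *Myl4* (0.53) and *Mov10* (0.32) and larger for *Tacr3* (0.68) and *Cecr2* (0.49). Over the 6 libraries, the log2 CPM of *Mov10* and *Tacr3* had a Pearson r of 0.98 and that of *Cecr2* and *Tacr3* one of -0.98. The choice of genes with groups that do not overlap fixes most of such values, so they describe the libraries only.

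**Figure D2:**
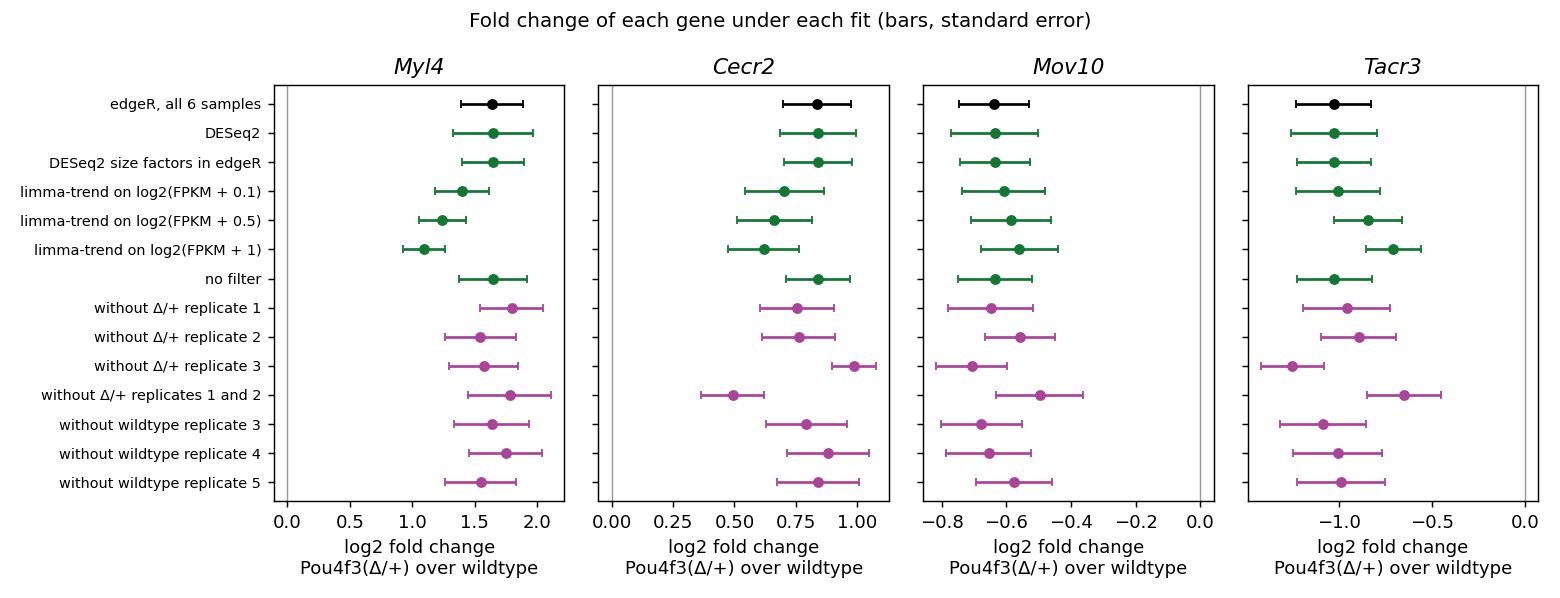
Log2 fold change of each gene, *Pou4f3(Δ/+)* over wildtype (x axis, a separate scale for each gene, grey line at 0), under each fit (y axis), with standard errors as bars, the edgeR fit on all 6 samples in black, other tools or settings in green and fits with fewer libraries in purple. No fit crosses 0, and the fit without *Pou4f3(Δ/+)* replicates 1 and 2 brings *Cecr2* to 0.49 and *Tacr3* to -0.65.

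The calls for the 4 genes depended on the tool and on replicate 3. DESeq2 gave adjusted p of 0.000263 for *Cecr2*, 0.000614 for *Myl4*, 0.00308 for *Mov10* and 0.00553 for *Tacr3*. With no filter on low counts, edgeR called 9 of 27491 genes (0.0327%), *Cecr2* (edgeR adjusted p = 0.0329) and *Myl4* (0.0451) among them and *Mov10* (0.0558) and *Tacr3* (0.0730) not. Without *Pou4f3(Δ/+)* replicate 3, edgeR called 193 of 17513 genes (1.10%), and all 4 were among them, with edgeR adjusted p of 0.00871 for *Cecr2*, 0.0246 for *Tacr3*, 0.0300 for *Mov10* and 0.0426 for *Myl4*. These counts come from the contrast that selected the genes, and nothing is read from them.

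At the level of transcripts, 4 of the 26 were at 0 in every library and 11 passed the filter on low counts. Of these 11, 3 had *Pou4f3(Δ/+)* values wholly above wildtype, 2 wholly below, and 6 overlapped, where 4115 of all 38347 tested transcripts (10.7%) did not overlap. EdgeR called 0 of all tested transcripts (0%) and 1586 (4.14%) had an unadjusted p under 0.05, of which 6 belong to the 4 genes. As the 4 genes were chosen on this contrast, nothing is read from these counts. DESeq2 called 130 (0.339%), of which 1 is a transcript of these genes, Cecr2-202. The division of reads among transcripts is an estimate, and 82.2% of the transcript counts above 0 were not whole, whereas all 24 sums over the 4 genes and 6 libraries lay within 0.001 of a whole number.

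For *Myl4*, the transcripts with the full coding sequence summed to 8.37, 28.0 and 10.4 counts in the wildtype libraries, against 55.2, 66.0 and 73.6 in the *Pou4f3(Δ/+)* libraries. The groups did not overlap, and wildtype replicate 4 was the highest of its group. In wildtype replicates 3 and 5 reads went instead to Myl4-207, a coding form of 575 bases with another first exon, which had 17.6 and 8.63 counts there and 0 in every *Pou4f3(Δ/+)* library, where 3 counts would be worth 0.241 to 0.299 FPKM across the 6 libraries. With so few reads the split between Myl4-207 and the other coding forms is uncertain, and the sum over the gene is not touched by it. Myl4-201, which begins at the outermost start site (104550663), held no more than 0.000737 counts in any library, so the reads of *Myl4* were assigned to inner starts. The start of Myl4-203 is at 104576985 and that of Myl4-202 at 104577281, just before the exon printed above. Myl4-208, a transcript with a retained intron that encodes no protein, had 5.06, 2.0 and 7.0 counts in wildtype and 19.1, 19.2 and 19.4 counts in *Pou4f3(Δ/+)*, again without overlap.

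**Figure D3:**
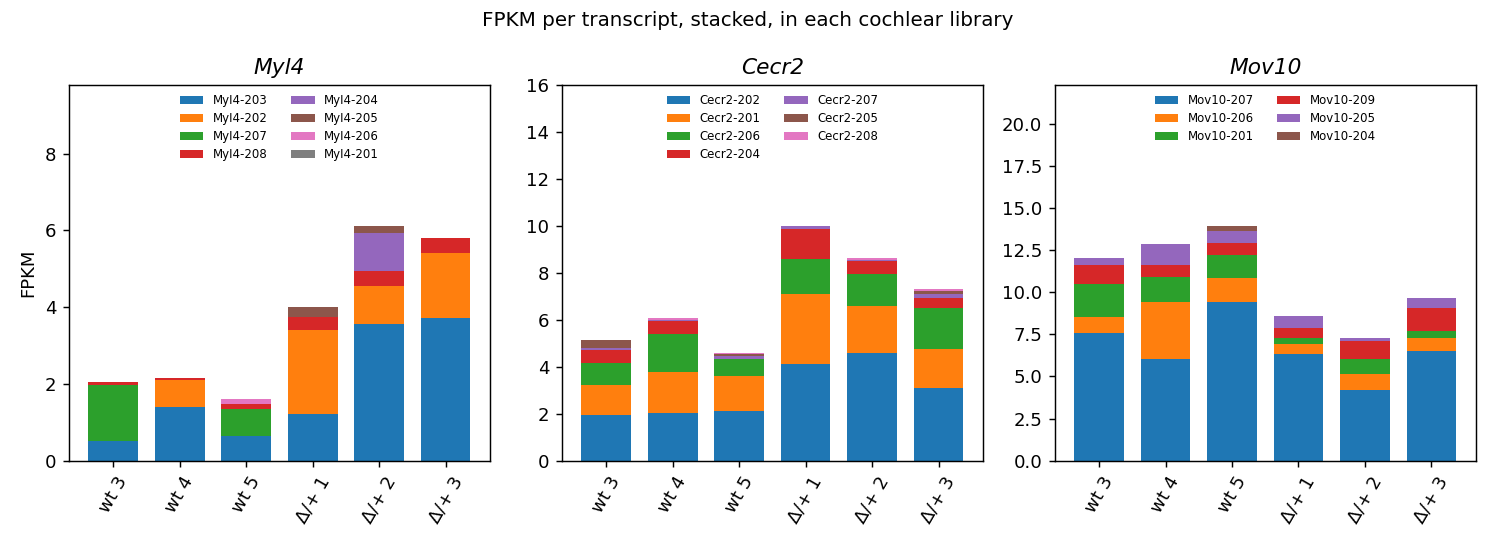
FPKM of each listed transcript (stacked colours) of *Myl4*, *Cecr2* and *Mov10* in the 3 wildtype (wt) and 3 *Pou4f3(Δ/+)* (Δ/+) libraries, y axis linear from 0, transcripts at 0 in every library left out. Myl4-207 appears in wildtype replicates 3 and 5 only, Cecr2-202 is the largest part of *Cecr2* in every library, and Mov10-207 is the largest part of *Mov10*.

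Cecr2-202 (ENSMUST00000112686), which lacks the 84-base stretch and has the long last exon, held 67.0% of the *Cecr2* counts in wildtype and 72.4% in *Pou4f3(Δ/+)*. It had 310, 267 and 334 counts in the wildtype libraries and 670, 655 and 419 in the *Pou4f3(Δ/+)* libraries. Its groups did not overlap, with a log2 fold change of 0.95 (SE 0.17; edgeR adjusted p = 0.649, DESeq2 adjusted p = 0.00243). Cecr2-201 (ENSMUST00000100993), which holds the stretch, had 106, 122 and 123 counts against 256, 149 and 119. Here *Pou4f3(Δ/+)* replicate 3 lay among the wildtype libraries and only replicate 1 was far above them (log2 fold change 0.56, SE 0.27; edgeR adjusted p = 0.999). The difference between the 2 forms was not tested. As Cecr2-202 is 9212 bases long and Cecr2-201 is 4849, their levels compare per length: 2.03 ± 0.0800 and 1.5 ± 0.246 FPKM (SD, n = 3) in wildtype.

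For *Mov10*, Mov10-207 (ENSMUST00000168015) held 65.0% of the counts in wildtype and 74.0% in *Pou4f3(Δ/+)*. Its counts of 453, 297 and 561 in the wildtype libraries overlapped with 387, 224 and 330 in the *Pou4f3(Δ/+)* libraries. Mov10-201 (ENSMUST00000002297), whose coding length of 3012 bases is that of Mov10-207, had 118, 74.5 and 83.0 counts against 24.7, 48.7 and 19.4, and its groups did not overlap (log2 fold change -1.51, SE 0.43; edgeR adjusted p = 0.999). The retained-intron form Mov10-209 had 36.3, 17.9 and 23.5 counts against 18, 31.2 and 37.9, and its groups overlapped (log2 fold change 0.25, SE 0.46). Whether it differs from the other forms was not tested. Sorted by the junction printed above, the 3 transcripts of the Mov10-203 form held 74.5 to 118 counts in the wildtype group against 19.4 to 48.7 in the *Pou4f3(Δ/+)* group, and the 2 of the Mov10-206 form held 473 to 647 against 277 to 424. Both forms were thus lower without overlap in counts. Mov10-203 itself was at 0 in every library, where 3 counts would be worth 0.0473 to 0.0586 FPKM, while Mov10-206 had 58.5, 176 and 85.8 counts against 37.0, 53.8 and 41.6. The single *Tacr3* transcript, Tacr3-201 (ENSMUST00000029822), carries all the values given for the gene.

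The genes next to the 4 did not show differences of like size. *Cdc27*, a subunit of the anaphase-promoting complex, starts 42 bases from the outermost *Myl4* start and runs the other way on the opposite strand. It had a log2 fold change of 0.07 (SE 0.09), and *Itgb3*, an integrin of platelets and osteoclasts, on the other side, 0.10 (SE 0.13). The 4 non-coding genes and pseudogenes that overlap *Myl4* on the opposite strand held at most 1 count in any library. Beside *Cecr2*, *Hdhd5* had 0.32 (SE 0.14) with groups that did not overlap, and *Slc25a18*, a mitochondrial glutamate carrier, -0.08 (SE 0.49). Beside *Mov10*, the small GTPase gene *Rhoc* had -0.20 (SE 0.10) and *Capza1*, an actin capping subunit, 0.11 (SE 0.09). Beside *Tacr3*, *Cxxc4* had -0.04 (SE 0.20) and the kinesin gene *Cenpe* 0.23 (SE 0.13), lying 566845 and 277957 bases away. All 8 had an edgeR adjusted p of at least 0.643, which is also the value of *Cecr2*, *Mov10* and *Tacr3*, so it does not set these neighbours apart.

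The genes around each of the 4 in function were then described from lists, given without the 4 genes themselves, and over all tested genes the median log2 fold change was -0.003, with 8472 higher and 8664 lower. *Tacr3* was the only tachykinin receptor with enough counts to be tested. *Tacr1* had between 0 and 12 counts per library and *Tacr2* between 0 and 2. Of the ligand genes, *Tac2*, which encodes neurokinin B, had 50, 61 and 10 counts in the wildtype libraries and 69, 23 and 38 in the *Pou4f3(Δ/+)* libraries, overlapping fully (log2 fold change 0.06, SE 0.60). The peptidase genes *Mme* (18.98 ± 1.27 against 14.5 ± 5.23 FPKM, SD, n = 3) and *Ece1* (14.9 ± 3.28 against 13.7 ± 0.817), whose products cut tachykinins, also overlapped. In all, 4 other genes of the tachykinin list, these peptidase genes among them, were tested. Of these, 1 was higher and 3 lower, 0 with an unadjusted edgeR p under 0.05 and 0 called by DESeq2. Below the receptor, the 11 genes of Gq proteins, phospholipases C beta and inositol trisphosphate receptors had a median log2 fold change of -0.03, 5 higher and 6 lower, with 0 at an unadjusted edgeR p under 0.05 and 0 called by DESeq2. The 3 most abundant were *Itpr1* (-0.04, SE 0.08), *Plcb4* (-0.31, SE 0.14) and *Plcb2* (0.02, SE 0.11).

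Among myosin light chains, *Myl4* was higher, whereas of the 7 others tested 2 were higher and 5 lower (median -0.12), with 0 called by edgeR, 2 at an unadjusted p under 0.05 and 1 called by DESeq2. The regulatory chain gene of smooth muscle, *Myl9*, had 1792, 1474 and 1965 counts in the wildtype libraries and 1245, 1233 and 1213 in the *Pou4f3(Δ/+)* libraries. Those groups did not overlap, at 96.2 ± 5.20 against 69.7 ± 5.69 FPKM (SD, n = 3), a log2 fold change of -0.47 (SE 0.09; edgeR adjusted p = 0.643, DESeq2 adjusted p = 0.00814). *Myl12a*, a non-muscle regulatory chain, had -0.22 (SE 0.09) and an unadjusted edgeR p of 0.0394, and its close copy *Myl12b*, with which reads could be shared, had -0.12 (SE 0.10). *Myl6*, the essential chain of non-muscle myosin and the most abundant at 491 ± 40.5 FPKM in wildtype, had -0.05 (SE 0.10). Without *Pou4f3(Δ/+)* replicates 1 and 2, 4 of these 7 were higher and 3 lower.

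The ISWI remodellers and their partners, the proteins among which *Cecr2* works, had 12 other tested genes, 9 higher and 3 lower, with a median log2 fold change of 0.09 and 0 with an unadjusted edgeR p under 0.05 or a DESeq2 call. The most abundant were the histone-binding chaperone genes *Rbbp7* (-0.03, SE 0.07) and *Rbbp4* (0.14, SE 0.08) and the remodeller subunit gene *Baz1b* (0.10, SE 0.08). *Cecr2* at 0.84 lay outside all of them.

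*Mov10* belongs to both lists on RNA. Of the 21 other tested genes of Argonaute proteins and mRNA decay, 16 were higher and 5 lower (median 0.05), and 1, the decapping enhancer gene *Edc3*, had an unadjusted edgeR p under 0.05, at 6.03 ± 0.253 FPKM (SD, n = 3) in wildtype and 7.41 ± 0.252 in *Pou4f3(Δ/+)* with no overlap (log2 fold change 0.31, SE 0.09; edgeR adjusted p = 0.643). The abundant members *Ddx6* (0.03, SE 0.08), *Lsm14a* (0.05, SE 0.06) and *Tnrc6a* (0.06, SE 0.08) differed little. Of the 10 other genes of retroelement control, 6 were higher and 4 lower (median 0.08), and 4 higher and 6 lower without *Pou4f3(Δ/+)* replicates 1 and 2 (median -0.09). The exonuclease gene *Trex1* (-0.51, SE 0.16) and the RNA deaminase gene *Adar* (-0.31, SE 0.13) had unadjusted edgeR p of 0.0115 and 0.0435 with no overlap between groups, and both had an edgeR adjusted p of 0.643. *Mphosph8*, of a silencing complex, was higher without overlap (0.15, SE 0.08) and was singled out for that. *Samhd1* (-0.05, SE 0.12), *Trim28* (0.06, SE 0.08) and *Apobec3* (0.35, SE 0.18) overlapped.

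**Figure D4:**
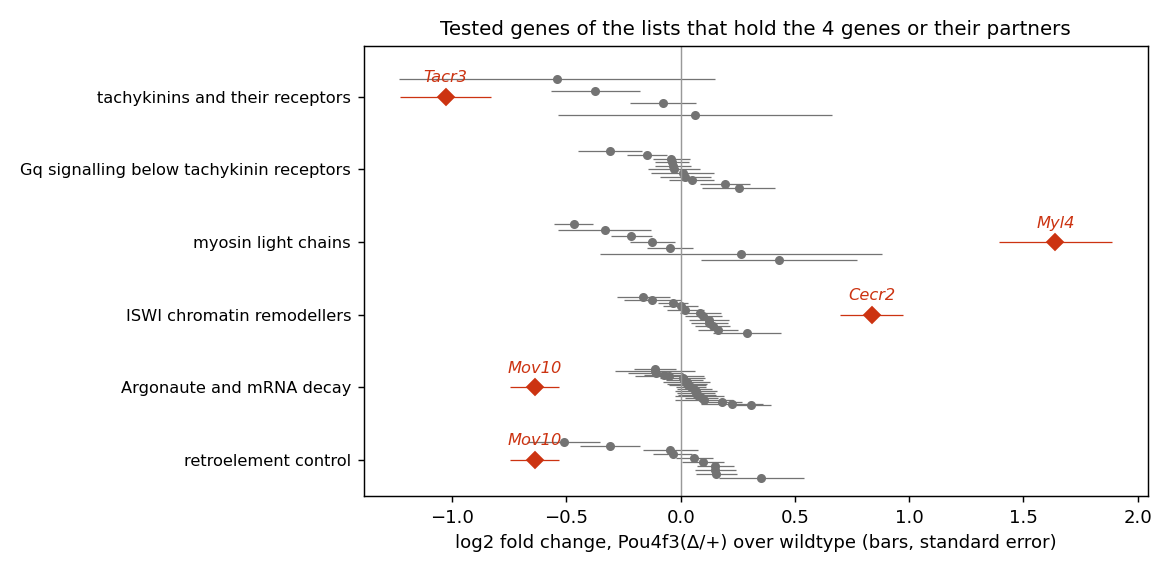
Log2 fold change, *Pou4f3(Δ/+)* over wildtype (x axis), of every tested gene of the 6 lists (y axis), grey points for the other genes, red diamonds for the 4 genes, bars for the standard error, with *Mov10* in both RNA lists. *Myl4* at 1.64 and *Cecr2* at 0.84 lie to the right of their lists, and *Mov10* at -0.64 and *Tacr3* at -1.03 to the left.

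Markers of other cells moved with the groups, each in its own way, and their part in the 4 differences was not tested. Striated muscle genes, which bear on *Myl4*, had a high sum in 1 library only. The 29 markers summed to 36.6 to 37.4 CPM in wildtype, to 36.3 and 33.2 in *Pou4f3(Δ/+)* replicates 1 and 2 and to 154 in replicate 3. In that library *Actc1* had 432 counts against at most 4 elsewhere, *Myh6* 254 against at most 9, and *Nppa* 35.4 against at most 2, and the myosin light chains of the heart *Myl2*, *Myl3* and *Myl7* had 134, 133 and 21 counts against at most 6, 6 and 0. Of the genes that skeletal muscle also uses, *Tnnc1* had 78 counts there against at most 5 elsewhere, *Ckm* 41.9 against at most 12, and *Tnni1*, the troponin I of slow fibres, 39 against at most 2. Others were not high there: *Acta1* had 7 counts, *Tnnt3* 3, *Actn3* 9, and *Tnnc2* and *Myh4* 0, and *Tnnt1*, of slow fibres, had 39, the fewest of the 6 libraries. But for *Tnnt1*, these heart and skeletal muscle markers were singled out after their values were seen. *Myl4* was at 4.41 and 6.42 CPM in replicates 1 and 2 and at 6.26 CPM in replicate 3, against 1.58 to 2.08 CPM in wildtype. Whether muscle content has a part in this was not tested. By the mean over all 6 libraries the most abundant markers were *Mybpc1* (5.83 ± 0.407 against 4.95 ± 0.855 FPKM, SD, n = 3), *Tnnt1* (4.97 ± 1.37 against 4.77 ± 1.47) and *Tnnt2*, which stood at 0.967 ± 0.355 in wildtype and 6.90 ± 9.93 in *Pou4f3(Δ/+)*. *Tnnt2* ranked there through replicate 3 alone, at 18.4 FPKM against at most 1.32 elsewhere, and in wildtype was below *Tnni2* and *Casq1*, which were singled out after their values were seen.

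The sums of erythroid and B cell genes were highest in *Pou4f3(Δ/+)* replicates 1 and 2. The 14 erythroid markers found, *Hbb-bs*, *Hba-a1* and *Hbb-bt* the most abundant (all have near-identical copies between which reads could be split), were all higher (median log2 fold change 0.37), and 7 were higher and 7 lower without *Pou4f3(Δ/+)* replicates 1 and 2. An unadjusted edgeR p under 0.05 was reached by 3 of the 14, with 0 called by edgeR and 1, *Hbb-bt*, by DESeq2. The groups did not overlap for 2, *Hbb-bt* (1088 FPKM in replicate 3 against at most 951 in wildtype) and *Slc4a1* (229.7 against at most 227), so both were above wildtype in replicate 3 too. The erythroid sum was 11087, 10528 and 9372 CPM in the wildtype libraries and 13465, 14582 and 10316 in the *Pou4f3(Δ/+)* libraries. The 9 B cell markers, among them *Cd79a*, *Cd79b* and *Ebf1*, were higher too (median 0.84, and 0.14 without replicates 1 and 2), 8 with an unadjusted edgeR p under 0.05, 0 called by edgeR and 4 by DESeq2, with sums of 379 to 421 CPM in wildtype and of 683, 737 and 428 in the *Pou4f3(Δ/+)* libraries. *Cecr2* was likewise highest in replicates 1 and 2, at 55.5 and 55.1 CPM, with 39.4 in replicate 3 against 26.4 to 29.6 in wildtype, so that it was above wildtype also in replicate 3, where the B cell sum was 428 CPM against at most 421 in wildtype. The mean log2 CPM of the B cell markers was 4.92 in replicate 3 against at most 4.81 in wildtype. In log2 CPM, 4 of them, *Cd79b*, *Pax5*, *Vpreb1* and *Vpreb3*, had groups that did not overlap, so those were above wildtype in replicate 3 too. In FPKM *Pax5* was not, at 8.31 in replicate 3 against 8.70 in wildtype replicate 3.

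The summed level of interferon response genes, like *Mov10*, was lower in each of the 3 *Pou4f3(Δ/+)* libraries than in any wildtype library. All 23 genes had a negative log2 fold change (median log2 fold change -0.94, and -0.76 without *Pou4f3(Δ/+)* replicates 1 and 2), 21 with an unadjusted edgeR p under 0.05, 0 called by edgeR and 4 by DESeq2. The groups did not overlap for 15 of the 23 and overlapped for the other 8, *Rsad2* and *Bst2* among them. Their summed level was 1811, 1482 and 2772 CPM in the wildtype libraries and 1275, 999 and 1246 in the *Pou4f3(Δ/+)* libraries. Wildtype replicate 5 was the highest for both the sum and *Mov10* (44.9 CPM), and *Pou4f3(Δ/+)* replicate 2 the lowest for both (23.5 CPM for *Mov10*). Among the rest the order of the sum within a group was opposite to that of *Mov10*. *Mov10* was at 39.2 and 40.2 CPM in wildtype replicates 3 and 4 and at 27.0 and 29.3 CPM in *Pou4f3(Δ/+)* replicates 1 and 3. The mean log2 CPM of the list was 5.84 and 5.49 in those wildtype libraries, again opposite. In *Pou4f3(Δ/+)* replicates 1 and 3 it was 5.19 and 5.22, in the same order as *Mov10*. The abundant members were *Isg15* (96.8 ± 32.2 against 59.5 ± 12.6 FPKM, SD, n = 3), *Rsad2* (78.0 ± 5.87 against 62.5 ± 10.4) and *Bst2* (66.1 ± 22.9 against 54.9 ± 15.8).

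Neuronal markers, which bear on *Tacr3*, were at 1973 to 2159 CPM in wildtype, 1791 and 1602 in *Pou4f3(Δ/+)* replicates 1 and 2 and 2181 in replicate 3, with *Snap25*, *Nefh* and *Nefl* the most abundant. Their median log2 fold change was -0.16, and 0.05 without replicates 1 and 2, and *Tacr3* was at -1.03 and -0.65 in the same fits. The hair cell list was at 0.09 with and without those libraries, and the cochlear list at -0.17 and 0.11. Of 12 cochlear genes tested, 2 had an unadjusted edgeR p under 0.05, the potassium channel genes *Kcnq1* (-0.45, SE 0.13) and *Kcne1* (-0.84, SE 0.24; DESeq2 adjusted p = 0.0359), both without overlap. The bone list was at -0.21 and -0.18. *Ibsp*, *Col1a2* and *Dmp1* led it by the mean over all 6 libraries, with *Col1a1*, at 98.96 FPKM, above *Dmp1*, at 82.9, in wildtype. Of its 10 genes, 5 were lower at an unadjusted edgeR p under 0.05, 0 were called by edgeR and 1, *Sp7*, by DESeq2. Of those lower, 4 (*Col1a1*, *Col1a2*, *Sp7* and *Alpl*) did not overlap in log2 CPM. In FPKM *Col1a2* did overlap, with 121.6 in *Pou4f3(Δ/+)* replicate 3 against 118.4 in wildtype replicate 3. *Kcnq1*, *Kcne1*, *Col1a1*, *Sp7*, *Alpl*, *Slc4a1* and the B cell genes other than the most abundant were also named after their values were seen.

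**Figure D5:**
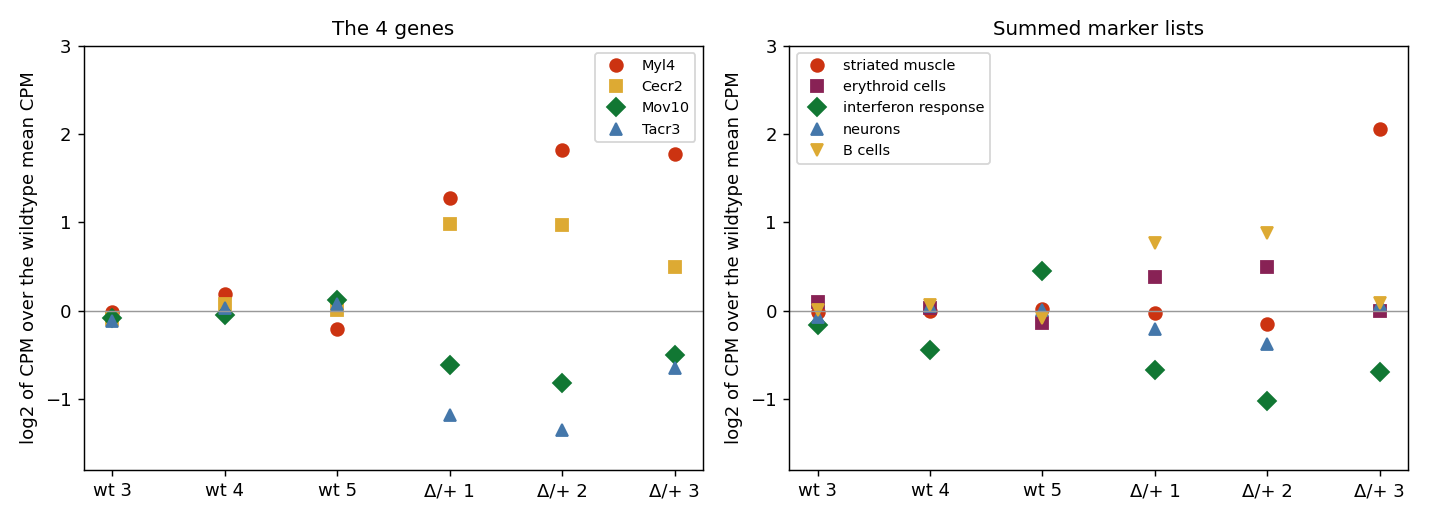
Left, CPM of each of the 4 genes, and right, summed CPM of 5 marker lists, both as log2 of the value over the wildtype mean (y axis) in the 3 wildtype (wt) and 3 *Pou4f3(Δ/+)* (Δ/+) libraries (x axis), points for single libraries. Striated muscle stands out in Δ/+ 3 only (154 CPM), B cells in Δ/+ 1 and 2 (683 and 737 CPM), and interferon response is below wildtype in all 3 Δ/+ libraries.

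The genes whose log2 CPM over the 6 libraries was most like that of each of the 4 were *Polr1e*, *Atxn7l3b* and *AC153546.1* for *Myl4* (Pearson r of 0.991, 0.989 and 0.988), *Rbm39*, *Hccs* and *Brwd1* for *Cecr2* (0.992, 0.990 and 0.990), *Pde1a*, *Gng7* and *Bmper* for *Mov10* (0.999, 0.994 and 0.993), and *Slc8a3*, *Zfp467* and *Ablim3* for *Tacr3* (0.996, 0.995 and 0.990). These are the highest of 17136 genes over 6 points that share their libraries, and they describe likeness only. The differences in these genes were smaller than in the gene they resemble: log2 fold changes were 0.21, 0.16 and 0.21 beside *Myl4*, 0.19, 0.22 and 0.25 beside *Cecr2*, -0.35, -0.40 and -0.59 beside *Mov10*, and -0.59, -0.25 and -0.38 beside *Tacr3*. All 12 had groups that did not overlap in log2 CPM, against 12.7% of all genes, which follows from their likeness to genes chosen for that property.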

How the data were processed

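Libraries of cochlear RNA, 3 wildtype and 3 *Pou4f3(Δ/+)*, were made after poly(A) selection or rRNA removal (the protocol names both) with no strand marking stated. The authors deposited an expected count per transcript, an estimate that need not be whole and is not normalized, and an FPKM value per transcript, scaled to length and library. Aligner and counter are not given in the sources used here. The submitters' processing notes name DESeq2 and mm8, whereas all 26 transcript IDs of the 4 genes were found in GENCODE M21 (GRCm38), which gave coordinates and transcript sequences. Promoter windows are from RefSeq. The gene ontology and pathway columns were not used. *Ahsp* and *Tasor*, 2 symbols of the gene lists, were not found under those names, and 24 symbols of date form are not named.

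Counts and FPKM were summed by gene symbol, and counts were rounded. edgeR 4.0.16 in R 4.3.3 (filterByExpr with minimum count 10 and minimum total 15, TMM, quasi-likelihood test, Benjamini-Hochberg adjustment over all genes or transcripts tested, threshold 0.05) was run on all 6 samples without covariates, after a check on simulated counts. CPM and log2 CPM used library totals scaled by TMM, with a prior count of 2 for log2 CPM. Standard errors are the log2 fold change over the root of the F statistic. The alternatives were DESeq2 1.42.0, its size factors in edgeR, no filter, limma 3.58.1 with the trend option on log2(FPKM + 0.5), the added pseudocount also being 0.1 or 1, each sample left out, and *Pou4f3(Δ/+)* replicates 1 and 2 left out together. Tables and motif counts were made with Python 3.11.15, pandas 2.3.3 and NumPy 2.4.6.

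The 4 genes and all gene lists were chosen with earlier results of these data known. Named beside the 4 were the 3 most abundant tested genes of each list (by mean FPKM over the 6 samples), list genes with an unadjusted p under 0.05 outside the marker lists, the nearest protein-coding gene on each side, and the 3 genes of highest correlation with each. Others are marked as singled out. Summed counts of 14295069 to 17696784 make 1 count per kilobase worth 0.0565 to 0.0700 FPKM. Values given for 3 counts cover counting error only. The result of 1 gene list is not reported here.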

Additional observations from a re-analysis of the deposited data

How the results depend on the processing

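No fit reversed any of the 4 genes in 13 alternatives each. On log2(FPKM + pseudocount), which changes the unit as well as adding the pseudocount, *Myl4* was at 1.24 with a pseudocount of 0.5 and 1.09 with 1, where *Cecr2* was at 0.62 and *Tacr3* at -0.71. Without *Pou4f3(Δ/+)* replicates 1 and 2, *Cecr2* was at 0.49, *Mov10* at -0.50 and *Tacr3* at -0.65. Leaving out 1 sample gave 1.54 to 1.80 for *Myl4*, 0.75 to 0.99 for *Cecr2*, -0.71 to -0.56 for *Mov10* and -1.25 to -0.89 for *Tacr3*. Adjusted p under 0.05 came from DESeq2, from edgeR without *Pou4f3(Δ/+)* replicate 3 and, for *Cecr2* and *Myl4*, from edgeR without a filter, and from no other alternative.

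Against 0 genes called by edgeR, DESeq2 called 64, edgeR without a filter 9, limma on log2(FPKM + 0.1) 1, and edgeR without *Pou4f3(Δ/+)* replicates 1 and 2 called 6. Leaving out 1 sample gave 0 to 193 genes, 193 without *Pou4f3(Δ/+)* replicate 3 and 3 without wildtype replicate 4. Against 0 transcripts, DESeq2 called 130, limma on log2(FPKM + 0.1) 2, edgeR without a filter 1, and leaving out 1 sample gave 0 to 3, with 3 without wildtype replicate 3 and 1 without *Pou4f3(Δ/+)* replicate 3. The causes were not tested. Depth limits *Myl4* most in wildtype, where its counting error was 18.5% against at most 7.33% for the other 3 genes, and *Myl4* and *Tacr3* alike in *Pou4f3(Δ/+)*, at 10.6% each. No paired analysis was possible because the groups share only 1 replicate number, 3.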
